A study of Mus musculus with 16 samples.

Results

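The CXC chemokines are small secreted proteins that guide leukocytes, and the members described here are those outside the interferon-induced trio Cxcl9, Cxcl10 and Cxcl11. They are Cxcl1, Cxcl2, Cxcl5, Ppbp, Pf4, Cxcl12, Cxcl13, Cxcl14 and Cxcl16, chosen as a gene family and found on the array by the gene symbol, or an older synonym, printed for each probe. The 9 genes had 11 of the 41174 probes of the array, and 9 of the 17466 features tested, where a feature is 1 gene, taken at its brightest probe, or 1 unnamed probe. Ppbp appears in the deposited files as Cxcl7 and Pf4 as Cxcl4. All 9 genes had at least 1 probe that passed the filter on dim probes. The filter kept a probe if some group had all 4 of its arrays called well above background by the scanner software. It left out the second of 2 Cxcl12 probes, whose values are given below with the first.

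The study measured RNA of adherent peritoneal macrophages from male mice of the strain BALB/cByJ-Lpin1fld/J on 16 one-colour Agilent arrays. The 4 groups, of 4 arrays each, were fld cells with LPS, fld cells without it, control cells with LPS and control cells without it. The fld (fatty liver dystrophy) mice are mutant for Lpin1, which encodes the phosphatidate phosphatase lipin-1, and the control mice were heterozygotes, so every mouse carried the fld allele. LPS (lipopolysaccharide, a bacterial ligand of the receptor Tlr4) was given at 100 ng/ml for 5 h in medium without serum. The mutation is present in every cell of the animal. The macrophages were selected by adherence, and no age is given in the labels. The design names 4 control and 4 fld mice, so cells of 1 mouse may have been measured both with and without LPS. Nothing in the labels says which arrays came from the same mouse, and the p-values measure the spread between these arrays, taken as separate.

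Several facts about the arrays bear on every value below. Each group was hybridised on a slide of its own, and the effect of the slide cannot be told apart from that of genotype or treatment. The 75th percentile of the signal ranged from 189 to 627 units, with the lowest value on LPS-treated fld replicate 4, and 58.7% to 65.4% of probes were well above background. Of 4 Lpin1 probes, 3 lay between -7.35 and -4.58 on fld replicates 1 to 3, against -4.43 to -1.99 on the control arrays. On fld replicate 4 the same probes lay between -1.94 and -1.36 without LPS and between -3.54 and -2.61 with it, so both arrays go against their label. The remaining Lpin1 probe overlapped between genotypes, at -2.15 to -1.40 on fld replicates 1 to 3 and -1.81 to -1.30 on control arrays. On the 2 arrays of fld replicate 4 it read -0.63 without LPS and -0.33 with it. Where leaving out these 2 arrays changed a member's call, the value without them is given too, as are the main shifts in size. All 8 macrophage markers on the list (among them Csf1r, Cd68 and Adgre1) were well above background on all arrays. All 6 B cell markers and all 6 mast cell markers were well above background on all arrays too. In each group 4 of 5 T cell markers and 4 of 5 dendritic cell markers were well above background on all 4 arrays. Of 8 mesothelial markers, 3 on LPS-treated fld arrays and 4 in each other group were well above background on all 4 arrays. The mesothelial markers Wt1 and Lrrn4 never were.

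CXC chemokines bind heparan sulfate and signal through G protein-coupled receptors on leukocytes. Members with a glutamate-leucine-arginine motif before the first cysteine (Cxcl1, Cxcl2, Cxcl5 and the products of Ppbp) recruit neutrophils through Cxcr2, while Cxcl12, Cxcl13 and Cxcl16 act in leukocyte positioning and homing. In macrophages, Tlr4 signals through the transcription factor NF-kB, which drives transcription of several of the neutrophil-attracting genes.

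Promoters are shown because the members moved in opposite directions although 6 of them lie on chromosome 5. RefSeq's promoter table for GRCm38.p6 held 7 of the 9 members, and Cxcl5 and Cxcl16 were not among them. The last 120 bases before the transcription start, on the strand of the gene, follow for Cxcl1 and Cxcl2, which rose with LPS in both genotypes, for Ppbp, which fell, for its neighbour Pf4 and for Cxcl13. Capitals mark the NF-kB consensus in Cxcl1 and Cxcl2 and the letters TATAAA in Ppbp and Cxcl13, and Pf4 held neither in the stretch shown.
Cxcl1 (chr5:90891125-90891244, plus strand): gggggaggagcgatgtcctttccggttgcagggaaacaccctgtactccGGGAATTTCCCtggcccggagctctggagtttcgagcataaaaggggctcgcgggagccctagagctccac
Cxcl2 (chr5:90903779-90903898, plus strand): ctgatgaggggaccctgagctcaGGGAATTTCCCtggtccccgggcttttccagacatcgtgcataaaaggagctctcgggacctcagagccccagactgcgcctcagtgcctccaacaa
Ppbp (chr5:90768398-90768517, plus strand): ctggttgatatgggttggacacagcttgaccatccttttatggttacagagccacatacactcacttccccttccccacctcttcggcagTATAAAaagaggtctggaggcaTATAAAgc
Pf4 (chr5:90772315-90772434, plus strand): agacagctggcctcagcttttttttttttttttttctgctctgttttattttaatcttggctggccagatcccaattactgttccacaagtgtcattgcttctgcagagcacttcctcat
Cxcl13 (chr5:95956819-95956938, plus strand): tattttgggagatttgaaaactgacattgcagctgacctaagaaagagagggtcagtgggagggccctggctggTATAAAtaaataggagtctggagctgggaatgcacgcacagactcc

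In the 250 bases before the start, searched on both strands, the NF-kB consensus was found in Cxcl1 and Cxcl2 and not in Ppbp, Pf4, Cxcl12, Cxcl13 or Cxcl14. Cxcl5, which had the largest LPS rise of the members, and Cxcl16 could not be searched. In Cxcl1 it began 71 bases before the start and in Cxcl2 97 bases before it, and in each gene the matches on the 2 strands overlapped. The consensus was held by 1014 of the 27025 promoters listed (3.75%). The longest run of letters shared by the Cxcl1 and Cxcl2 stretches was 14 bases and contained the match, whereas the other 20 pairs of members shared runs of 7 to 10 bases. TATAAA, held by 13% of all promoters, occurred at 30 and at 8 bases before the start of Ppbp and at 46 bases before that of Cxcl13. TGANTCA, an AP-1 consensus held by 6.87% of promoters, occurred 204 bases before the start of Ppbp. TTGCNNAA, the core of a C/EBP site held by 9.55% of promoters, occurred 212 bases before the start of Pf4 and 164 before that of Cxcl13. A match of letters is a description of the sequence and not a binding site.

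**Figure D1:**
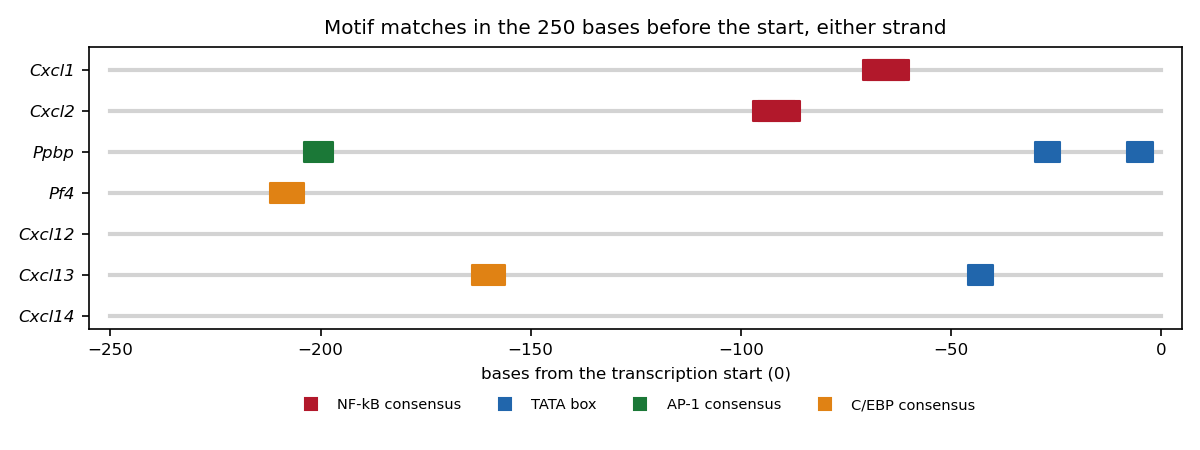
Matches to 4 motifs in the 250 bases before the transcription start of 7 members; the horizontal axis is the distance from the start in bases, each row is a gene and each block a match on either strand. The NF-kB matches of Cxcl1 and Cxcl2 begin 71 and 97 bases before the start, and the rows of Cxcl12 and Cxcl14 hold no block.

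With LPS, 5 of the 9 members changed in arrays labelled fld: Cxcl1, Cxcl2 and Cxcl5 rose, and Ppbp and Cxcl13 fell (limma, Benjamini-Hochberg adjusted over all 17466 features). This stands beside 40.1% of all features, 21.9% of them higher and 18.2% lower. In control arrays 6 of the 9 changed: Cxcl1, Cxcl2, Cxcl5 and Cxcl16 rose, and Ppbp and Cxcl12 fell, beside 29.9% of all features, 14.8% higher and 15.2% lower. Cxcl12 and Cxcl16 kept these signs in control arrays except under a normexp background correction, described at each gene. The median difference over the 9 members was -0.10 in arrays labelled fld and 0.38 in control arrays, against 0.065 and 0.034 over all features. Of the calls over all features in arrays labelled fld, 54.7% were higher with LPS, a share of 29.6% when each array was scaled to its median as in the authors' value table. With a normexp background correction (offset 50) the share was 43.0%, and with extreme local backgrounds reset before it 66.7%.

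**Figure D2:**
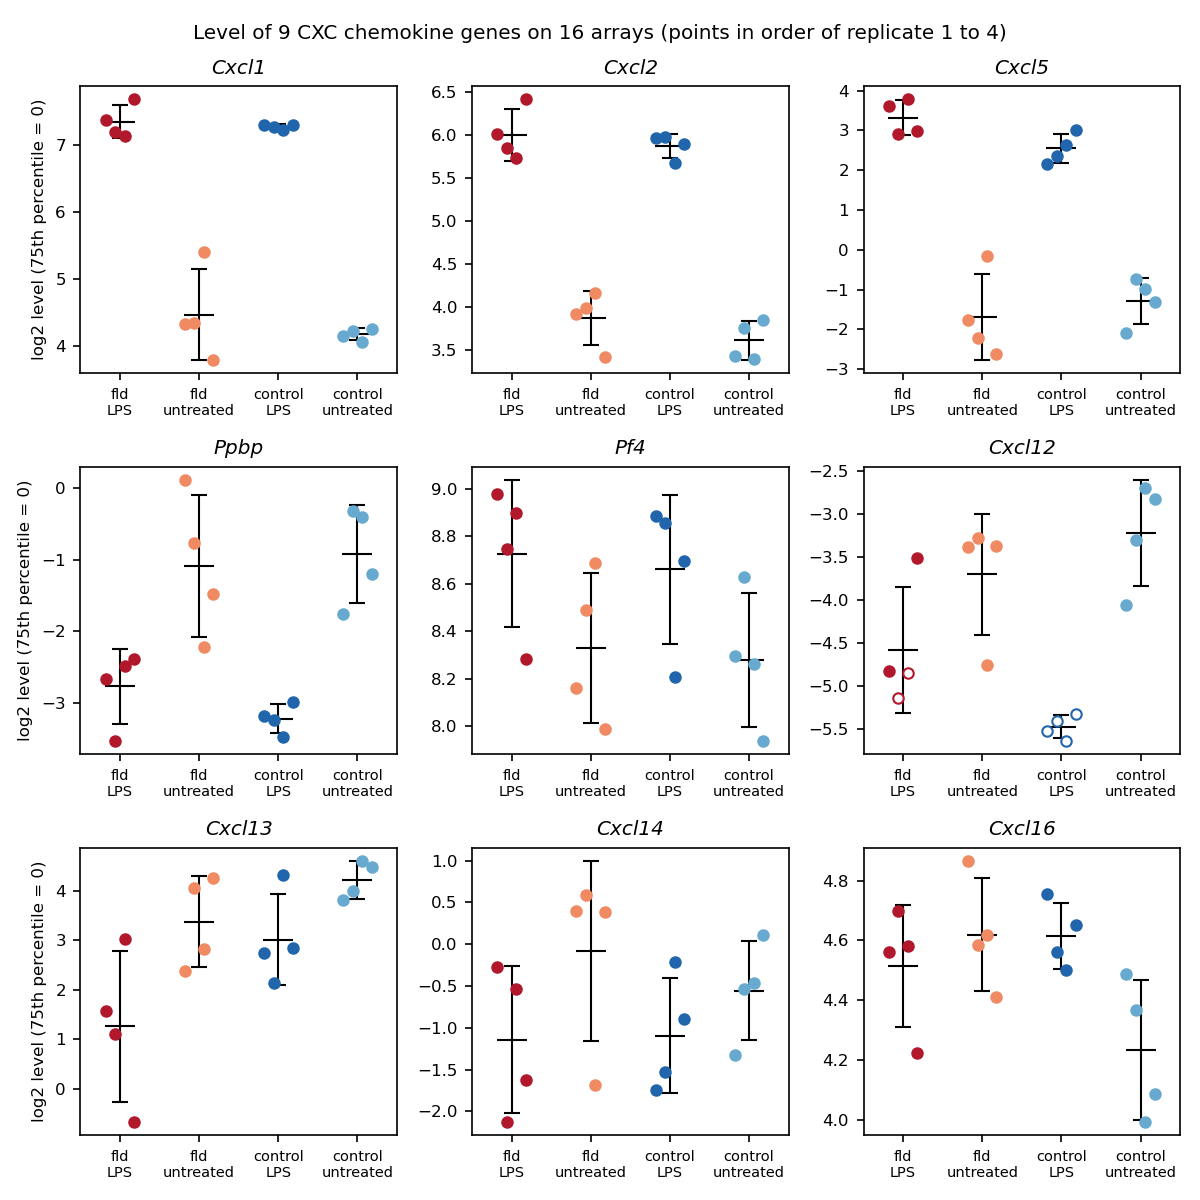
Level of each member on each of the 16 arrays, as log2 signal with the array's 75th percentile at 0; points run in order of replicate 1 to 4 within a group, bars are mean and SD (n = 4), and open points were not well above background. The LPS-treated arrays lie above the untreated ones without overlap in Cxcl1, Cxcl2 and Cxcl5 and below them in Ppbp, in both genotypes.

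Cxcl1, the mouse KC chemokine and a ligand of Cxcr2, rose with LPS in both genotypes. Levels here and below are log2 signals relative to the array's 75th percentile, for replicates 1 to 4 in order. On arrays labelled fld Cxcl1 stood at 7.37, 7.18, 7.13 and 7.68 with LPS, against 4.32, 4.33, 5.40 and 3.79 without it. On control arrays it stood at 7.30, 7.27, 7.21 and 7.29 with LPS, against 4.15, 4.22, 4.05 and 4.25 without it. The treated and untreated arrays did not overlap in either genotype, and the untreated fld arrays were the most scattered, with replicate 3 high and replicate 4 low. The mean was 7.34 ± 0.25 with LPS and 4.46 ± 0.68 without it on arrays labelled fld, and 7.27 ± 0.040 with LPS and 4.17 ± 0.089 without it on control arrays (SD, n = 4 each). The log2 difference was 2.88 ± 0.24 (SE), or 7.37-fold, in arrays labelled fld and 3.10 ± 0.24, or 8.58-fold, in control arrays, with adjusted p = 7.9e-07 and 3.7e-07 by limma. Without the 2 fld arrays of replicate 4 the first difference was 2.54.

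Cxcl2 (MIP-2), a second Cxcr2 ligand made early by activated macrophages, rose alongside it. Arrays labelled fld had levels of 6.003, 5.85, 5.73 and 6.41 with LPS, against 3.92, 3.99, 4.16 and 3.43 without it. Control arrays had 5.96, 5.97, 5.67 and 5.89 with LPS, against 3.44, 3.76, 3.41 and 3.85 without it. Again no treated array overlapped an untreated one, and fld replicate 4 was the highest of its group with LPS and the lowest without. The difference was 2.12 ± 0.17 (4.36-fold, adjusted p = 7.0e-07) in arrays labelled fld and 2.26 ± 0.17 (4.78-fold, adjusted p = 3.7e-07) in control arrays. Without the 2 fld arrays of replicate 4 the first was 1.84. Both Cxcl1 and Cxcl2 hold the NF-kB consensus in the promoter letters printed above, while the promoter of Cxcl5 was not searched.

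Cxcl5 (LIX), a Cxcr2 ligand best known from epithelial and stromal cells, gave the largest LPS difference among the 9 members in both genotypes. Its levels on arrays labelled fld were 3.60, 2.91, 3.79 and 2.98 with LPS, against -1.76, -2.23, -0.15 and -2.60 without it. The control values were 2.16, 2.36, 2.64 and 3.01 with LPS, against -2.09, -0.74, -0.99 and -1.32 without it. All treated arrays lay above all untreated ones, and untreated fld replicate 3 was again the highest of its group. The difference was 5.01 ± 0.44 (32.1-fold, adjusted p = 1.2e-06) in arrays labelled fld and 3.83 ± 0.44 (14.2-fold, adjusted p = 1.4e-05) in control arrays. The LPS responses differed by 1.18 (95% interval -0.14 to 2.49), which was not called (adjusted p = 0.59).

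The calls of all 3 of these Cxcr2 ligands held in each of the 16 fits that left out 1 array and in each other alternative run. Left-out differences ran from 2.66 to 3.20 for Cxcl1, 1.97 to 2.22 for Cxcl2 and 4.70 to 5.52 for Cxcl5 in arrays labelled fld. In control arrays they ran from 3.06 to 3.13, 2.19 to 2.33 and 3.56 to 4.01 for the same genes. Summed neutrophil markers moved with LPS as well: the sum of the 6 markers on the array was 19.2 to 26.8 times the 75th percentile on LPS-treated fld arrays, against 1.31 to 1.69 on untreated ones. On control arrays the sum was 9.15 to 15.9 with LPS, against 1.26 to 2.32 without it. Most of the LPS-treated sum was S100a8 alone. Its mean log2 level on arrays labelled fld was 4.43 with LPS and -0.059 without it. On control arrays it was 3.68 and 0.22. Of the 4 markers tested 2 rose in each genotype, S100a8 and Camp (named after their values were seen), while Ngp was never so bright on an LPS-treated array as to be called above background. Ltf was not well above background on any control array. The part of such cells in the chemokine values was not tested, and in bulk RNA fewer cells of a type and less RNA per cell cannot be told apart.

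Ppbp and Pf4 encode the platelet alpha-granule chemokines pro-platelet basic protein and platelet factor 4, and the genes sit side by side with Cxcl5 on chromosome 5. Ppbp fell with LPS in both genotypes. In arrays labelled fld the level was -2.66, -3.53, -2.48 and -2.38 with LPS, against 0.11, -0.77, -2.22 and -1.48 without it. In control cells the level was -3.18, -3.23, -3.47 and -2.99 with LPS, against -1.76, -0.32, -0.40 and -1.20 without it. The groups did not overlap, though untreated fld replicate 3 came close to the highest treated array. The difference was -1.67 ± 0.43 (3.19-fold lower, adjusted p = 0.0068) in arrays labelled fld and -2.30 ± 0.43 (4.91-fold lower, adjusted p = 0.00091) in control arrays. Leaving out any 1 array kept both calls, with differences of -2.05 to -1.27 and -2.57 to -2.10. A normexp background correction ended both, at -0.46 (adjusted p = 0.50) in arrays labelled fld and -0.83 (adjusted p = 0.26) in control arrays.

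Pf4 did not change by the test in either genotype. For arrays labelled fld the values were 8.98, 8.75, 8.90 and 8.28 with LPS, against 8.16, 8.49, 8.69 and 7.99 without it. Among controls the level was 8.89, 8.85, 8.21 and 8.69 with LPS, against 8.29, 8.63, 8.26 and 7.94 without it. Treated and untreated arrays overlapped in both genotypes. The difference was 0.40 ± 0.21 (95% interval -0.042 to 0.83, adjusted p = 0.13) in arrays labelled fld and 0.38 ± 0.21 (-0.058 to 0.82, adjusted p = 0.19) in control arrays, with the signs turned under the normexp correction (-0.071 and -0.11). With array quality weights the fld difference was called (0.55, adjusted p = 0.028). Of the 10 platelet and megakaryocyte markers on the array, 7 were tested. Clec1b, the platelet receptor for podoplanin, was well above background on all 8 untreated arrays, and with LPS on 1 of 4 arrays labelled fld and on no control array. It fell by 2.28 in arrays labelled fld and was at least 2.62-fold lower with LPS in control arrays. Gp1bb, a subunit of the platelet receptor for von Willebrand factor, rose in arrays labelled fld (both named after their values were seen), so the markers did not move one way there. Gp5 was never well above background. The markers' summed level was 3.22 to 5.53 on LPS-treated and 2.91 to 5.46 on untreated fld arrays, and 2.65 to 3.05 on LPS-treated and 2.76 to 7.25 on untreated control arrays. Their part in the Ppbp values was not tested.

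Cxcl12 (SDF-1), the ligand of Cxcr4 and Ackr3 and a product of stromal and mesothelial cells, was dim. Its tested probe, matched to transcript variant 2, stood at -4.83, -5.15, -4.85 and -3.51 on LPS-treated arrays labelled fld, of which 2 were well above background, against -3.39, -3.28, -4.76 and -3.38 on untreated ones. Control cells gave -5.52, -5.41, -5.64 and -5.33 with LPS, none of them well above background, against -4.06, -3.30, -2.70 and -2.83 without it. The control groups did not overlap, while in arrays labelled fld replicate 4 with LPS and replicate 3 without it lay among the other group. In control arrays Cxcl12 was at least 3.47-fold lower with LPS, the measured mean of -5.48 against -3.22 giving a fitted difference of -2.25 ± 0.39 (adjusted p = 0.00048), although under the normexp correction the sign turned (0.22, adjusted p = 0.77) and with extreme local backgrounds reset the call was lost (-0.43, adjusted p = 0.15). In arrays labelled fld the difference was -0.88 ± 0.39 (adjusted p = 0.081). It was -1.24 (adjusted p = 0.013) without LPS-treated fld replicate 4, -1.23 (adjusted p = 0.015) without untreated fld replicate 3 and -1.13 (adjusted p = 0.036) without both fld arrays of replicate 4. Quantile normalization, the value table's scaling and array weights also called it, at -1.20, -1.12 and -1.22, while its sign turned in 2 normexp settings, at 0.69 and 0.16.

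The second Cxcl12 probe, matched to transcript variant 1, was well above background on 2 of 16 arrays, both untreated controls. It stood at -7.08, -6.39, -6.23 and -5.81 on LPS-treated and -5.56, -5.45, -7.24 and -5.28 on untreated arrays labelled fld. The 8 control arrays read -6.94, -6.69, -7.33 and -6.99 with LPS, against -5.80, -5.09, -4.22 and -4.57 without it. In both genotypes the lowest untreated array of this probe was the one that was lowest for the first probe. With LPS-treated control levels raised to the dimmest level called above background, this probe was 1.07-fold lower with LPS in control arrays. Only 2 of the 4 untreated control arrays were well above background, so this fold is no lower limit. Summed mesothelial markers were 0.552 to 0.831 on LPS-treated and 0.390 to 1.40 on untreated fld arrays, and 0.334 to 0.497 on LPS-treated and 0.537 to 1.12 on untreated control arrays. Of the 8 mesothelial markers 4 were tested, and 2 of these, Krt8 and Krt18 (named after their values were seen), fell in control arrays and none in arrays labelled fld. Summed fibroblast markers were 2.30 to 4.75 on LPS-treated and 2.32 to 4.16 on untreated fld arrays, and 1.37 to 2.73 on LPS-treated and 1.12 to 3.31 on untreated control arrays. Of the 7 fibroblast markers 6 were tested. In arrays labelled fld 2 of these rose and 0 fell, Col1a1 by 2.22 and Lum by 1.62. In control arrays Lum rose by 2.53 and Col3a1 differed by -1.04, a fall by the test (all named after their values were seen). The part of mesothelial cells and fibroblasts in the Cxcl12 values was not tested.

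Cxcl13 (BLC), which draws B cells through Cxcr5 and is made by peritoneal macrophages and follicular stroma, was the most scattered member. Arrays labelled fld gave 1.57, 1.11, 3.03 and -0.67 with LPS, against 2.37, 4.05, 2.83 and 4.25 without it. On control arrays it stood at 2.73, 2.14, 4.31 and 2.84 with LPS, against 3.81, 3.98, 4.60 and 4.48 without it. LPS-treated replicate 3 was the highest of its group in both genotypes and lay among the untreated arrays. The group means ran from 1.26 ± 1.53 (LPS-treated fld) through 3.01 ± 0.92 (LPS-treated control) and 3.38 ± 0.92 (untreated fld) to 4.22 ± 0.38 (untreated control; SD, n = 4 each), and no neighbours in that order differed by limma where they were compared. The LPS difference was -2.12 ± 0.65 (4.33-fold lower, adjusted p = 0.019) in arrays labelled fld and -1.21 ± 0.65 (95% interval -2.60 to 0.18, adjusted p = 0.18) in control arrays. The first call was lost without LPS-treated fld replicate 4 (-1.47, adjusted p = 0.057), without untreated fld replicate 2 (-1.89, adjusted p = 0.058) or replicate 4 (-1.82, adjusted p = 0.057), and without both fld arrays of replicate 4 (-1.18, adjusted p = 0.14). It was also lost under the normexp correction (-2.18, adjusted p = 0.069), in a fit on the 2 groups alone (adjusted p = 0.059) and with array weights (-1.41, adjusted p = 0.055), which called the control difference instead (-1.44, adjusted p = 0.036). The LPS responses differed by -0.90 (95% interval -2.87 to 1.06, adjusted p = 0.81). Vsig4 and Timd4, markers of large peritoneal macrophages, fell in arrays labelled fld too and Vsig4 in control arrays, where Icam2, another marker of these cells, rose by 0.99 (named after their values were seen). The summed level of the 4 markers of these cells was 17.8 to 42.5 on LPS-treated and 24.0 to 34.9 on untreated fld arrays, and 32.1 to 40.7 on LPS-treated and 22.9 to 26.3 on untreated control arrays. Of the 8 general macrophage markers, 4 fell and 1 rose with LPS in arrays labelled fld, and 2 fell and 1 rose in control arrays. Their summed level was 1363 to 1663 on LPS-treated and 1149 to 1258 on untreated fld arrays. On control arrays it was 1117 to 1583 with LPS and 1000 to 1129 without it. The part of any of these cells in the Cxcl13 values was not tested.

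Cxcl14 (BRAK), a conserved chemokine with no settled receptor, did not change by the test in any comparison. Readings on arrays labelled fld were -0.28, -2.13, -0.53 and -1.63 with LPS, against 0.39, 0.59, -1.68 and 0.38 without it. Controls stood at -1.74, -1.53, -0.22 and -0.90 with LPS, against -1.33, -0.53, -0.46 and 0.11 without it. Groups overlapped in both genotypes, and in untreated arrays labelled fld replicate 3 lay well below the rest. The LPS difference was -1.06 ± 0.53 (adjusted p = 0.12) in arrays labelled fld and -0.54 ± 0.53 (adjusted p = 0.48) in control arrays. Without untreated fld replicate 3 the first became -1.60 (adjusted p = 0.016), and without both fld arrays of replicate 4 it was -0.74 (adjusted p = 0.39).

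Cxcl16, a membrane-anchored ligand of Cxcr6 that doubles as a scavenger receptor and is shed by Adam10, was steady on its brighter probe. That probe stood at 4.56, 4.70, 4.58 and 4.22 on LPS-treated arrays labelled fld, against 4.87, 4.58, 4.62 and 4.41 on untreated ones. For control cells the values were 4.75, 4.56, 4.50 and 4.65 with LPS, against 4.49, 4.37, 3.99 and 4.09 without it. The control groups just separated and those labelled fld overlapped. The difference was -0.10 ± 0.14 (95% interval -0.40 to 0.19, adjusted p = 0.57) in arrays labelled fld. In control arrays it was 0.38 ± 0.14 (1.30-fold, adjusted p = 0.048), with the sign turned under the normexp correction (-0.096). Leaving out 1 array at a time lost the control call in 11 of 16 fits, with adjusted p up to 0.14, at differences of 0.30 to 0.47. The fits that lost it left out control replicate 2, 3 or 4 without LPS, control replicate 1, 2 or 4 with LPS, fld replicate 2 or 3 without LPS, or fld replicate 1, 2 or 3 with LPS. Quantile normalization (0.24, adjusted p = 0.16), the value table (0.36, adjusted p = 0.15), reset local backgrounds (0.34, adjusted p = 0.115), no filter on dim probes (adjusted p = 0.092) and a fit on the 2 groups alone (adjusted p = 0.058) lost it as well. The second probe gave 0.26 ± 0.15 in control arrays (adjusted p = 0.22) and -0.23 ± 0.15 in arrays labelled fld (adjusted p = 0.24), so its control call did not pass. It stood at 3.35, 3.88, 3.80 and 3.67 on LPS-treated and 4.19, 3.87, 3.90 and 3.68 on untreated arrays labelled fld. On the control side it read 3.89, 3.61, 3.47 and 3.75 with LPS, against 3.60, 3.58, 3.10 and 3.39 without it.

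**Figure D3:**
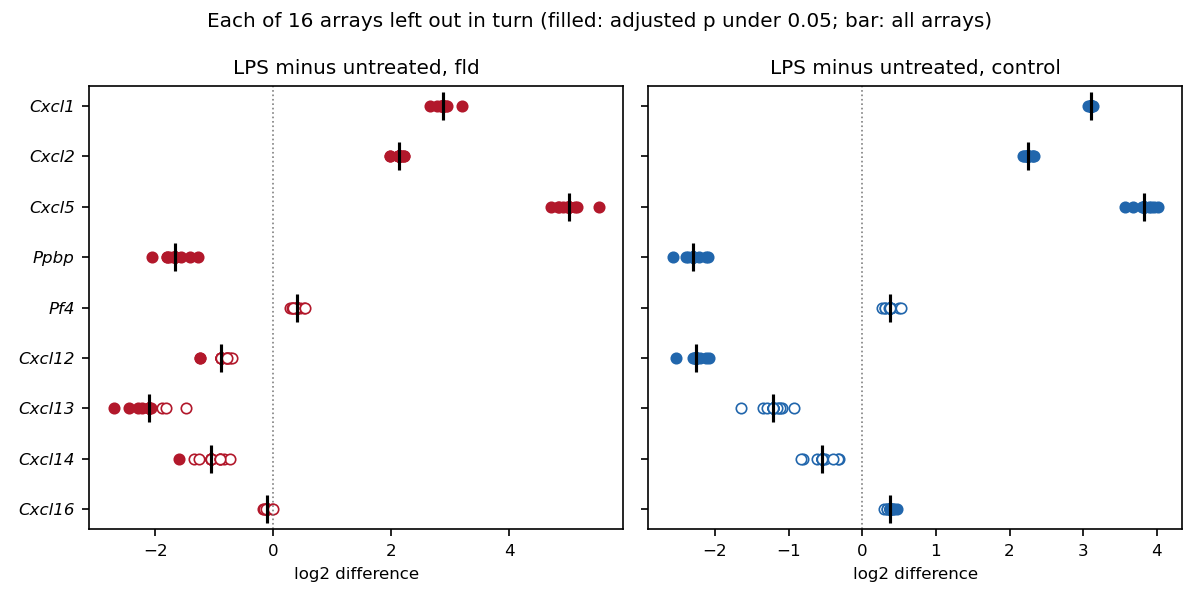
LPS difference of each member (log2, LPS-treated minus untreated) in 16 fits that each left out 1 array, for arrays labelled fld and for control arrays; circles are fits, filled where limma's adjusted p was under 0.05, and the bar is the fit on all arrays. Circles of Cxcl1, Cxcl2, Cxcl5 and Ppbp are filled throughout, while those of Cxcl13 on the fld side and of Cxcl16 on the control side are partly open.

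Counted by arrays rather than by the test, treated and untreated arrays did not overlap for 4 of the 9 members in arrays labelled fld (Cxcl1, Cxcl2, Cxcl5 and Ppbp), beside 37.2% of all features. In control arrays they did not overlap for 6 of 9, the same 4 with Cxcl12 and Cxcl16, beside 32.7% of all features.

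The design also asks whether loss of lipin-1 shifts these chemokines. No member differed between genotypes by the test. With LPS 0 of 9 were called, beside 17.1% of all features (16.2% higher and 0.899% lower), and untreated 0 of 9, beside 5.26% (5.03% higher and 0.223% lower; limma). At an unadjusted p under 0.05 there were 2 of 9 with LPS, Cxcl12 and Cxcl13, beside 26.7% of all features, and 1 of 9 untreated, Cxcl16, beside 18.6%. The median difference over the members was 0.074 with LPS and 0.050 untreated, against 0.025 and 0.060 over all features. Over all features 94.7% of the calls with LPS were higher in arrays labelled fld, a share of 23.3% with the scaling of the authors' value table and of 74.3% after quantile normalization. Untreated, the share was 95.8%, against 85.3% in the value table's scaling.

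For the Cxcr2 ligands the intervals of the genotype difference were narrow in Cxcl1 and Cxcl2 and wide in Cxcl5. With LPS, arrays labelled fld minus control arrays gave 0.074 for Cxcl1 (95% interval -0.44 to 0.59), 0.13 for Cxcl2 (-0.25 to 0.50) and 0.77 for Cxcl5 (-0.16 to 1.71, adjusted p = 0.29). The signs of Cxcl1 and Cxcl2 here were not stable: without LPS-treated fld replicate 4 they were -0.039 and -0.011. Untreated, the differences were 0.29 (-0.22 to 0.81), 0.26 (-0.11 to 0.63) and -0.40 (-1.33 to 0.53) for the same genes. Without untreated fld replicate 3 the untreated Cxcl1 difference was -0.020. Without both fld arrays of replicate 4 the untreated differences were 0.52, 0.41 and -0.096.

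Among the others, Cxcl13 had the largest genotype difference with LPS, -1.74 (95% interval -3.14 to -0.35), which missed the threshold (adjusted p = 0.087). It passed without LPS-treated fld replicate 3 (-2.34, adjusted p = 0.013) and in the value table's scaling (-2.14, adjusted p = 0.022), and shrank to -1.10 (adjusted p = 0.26) without both fld arrays of replicate 4. Cxcl12 was the only member whose LPS-treated groups did not overlap between genotypes, 1 of 9 beside 19.9% of all features. With LPS-treated control levels raised to the dimmest level called above background, Cxcl12 was 1.35-fold higher in arrays labelled fld. Of those fld arrays 2 of 4 were well above background and of the control arrays none, so this fold is no lower limit. The fitted difference by limma was 0.89 (adjusted p = 0.15). Without fld replicate 4 that fold was 1.05, with 1 of the remaining fld arrays well above background, and the fitted difference was 0.53 (adjusted p = 0.43). Untreated, no member's groups separated, 0 of 9 beside 15.3% of all features. Cxcl16 gave 0.39 (0.093 to 0.68, adjusted p = 0.13) on its brighter probe and 0.49 (0.16 to 0.81, adjusted p = 0.095) on the second, the 2 probes being of similar size and the same sign. Without both fld arrays of replicate 4 the brighter probe gave 0.46 by limma (adjusted p = 0.054). Ppbp, Pf4 and Cxcl14 differed by 0.45, 0.066 and -0.045 with LPS and by -0.17, 0.050 and 0.47 untreated, each with an interval that spans 0.

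The size of the LPS response was compared between genotypes in the same model. It differed in 0 of 9 members and in 0% of all features after adjustment. At an unadjusted p under 0.05 there were 2 members, Cxcl12 (1.37, 95% interval 0.21 to 2.54, adjusted p = 0.44) and Cxcl16 (-0.49, -0.90 to -0.073, adjusted p = 0.44), beside 9.44% of all features. For Cxcl1 and Cxcl2 the responses differed by -0.22 (-0.94 to 0.51) and -0.13 (-0.66 to 0.40). Intervals of that width do not show that the responses were equal.

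**Figure D4:**
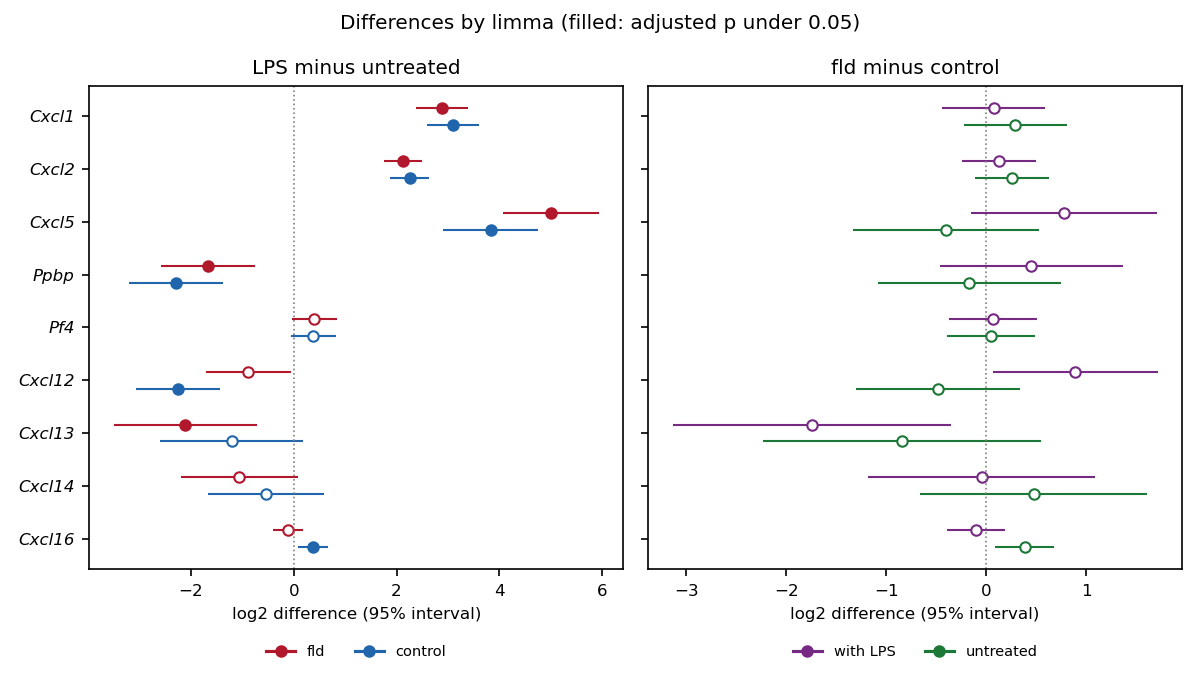
Log2 difference of each member with its 95% interval, LPS-treated minus untreated for arrays labelled fld and for control arrays on the left, and fld minus control with LPS and untreated on the right; filled circles have limma's adjusted p under 0.05 over all features. All circles on the right are open, and the intervals of Cxcl1, Cxcl2 and Cxcl5 on the left lie wholly above 0.

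Some arrays held the highest or lowest value of their group in several members, a count that was not tested. Untreated fld replicate 3 had the highest value of its group in Cxcl1, Cxcl2, Cxcl5 and Pf4 and the lowest in Ppbp, Cxcl12 and Cxcl14. For Cxcl1, Cxcl2, Cxcl5 and Ppbp, which were called in arrays labelled fld, this is the direction of the LPS change. Cxcl13, also called there, deviated from its group mean by -0.55 on this array, again that direction, but was not the lowest of its group. On the same array the summed level of the cytokine signals that induce CXC genes was 221.4, against 124, 142.8 and 124.5 on replicates 4, 2 and 1, and summed mast cell markers were 124.1, against 33.7 to 62.2. Untreated fld replicate 4 was lowest in Cxcl1, Cxcl2, Cxcl5, Pf4 and Cxcl16 and highest in Cxcl13. LPS-treated fld replicate 4 was highest in Cxcl1, Cxcl2, Ppbp and Cxcl12 and lowest in Pf4, Cxcl13 and Cxcl16. LPS-treated control replicate 3 was lowest in 6 members. Whether these features of single arrays bear on the group differences was not tested beyond leaving each array out.

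**Figure D5:**
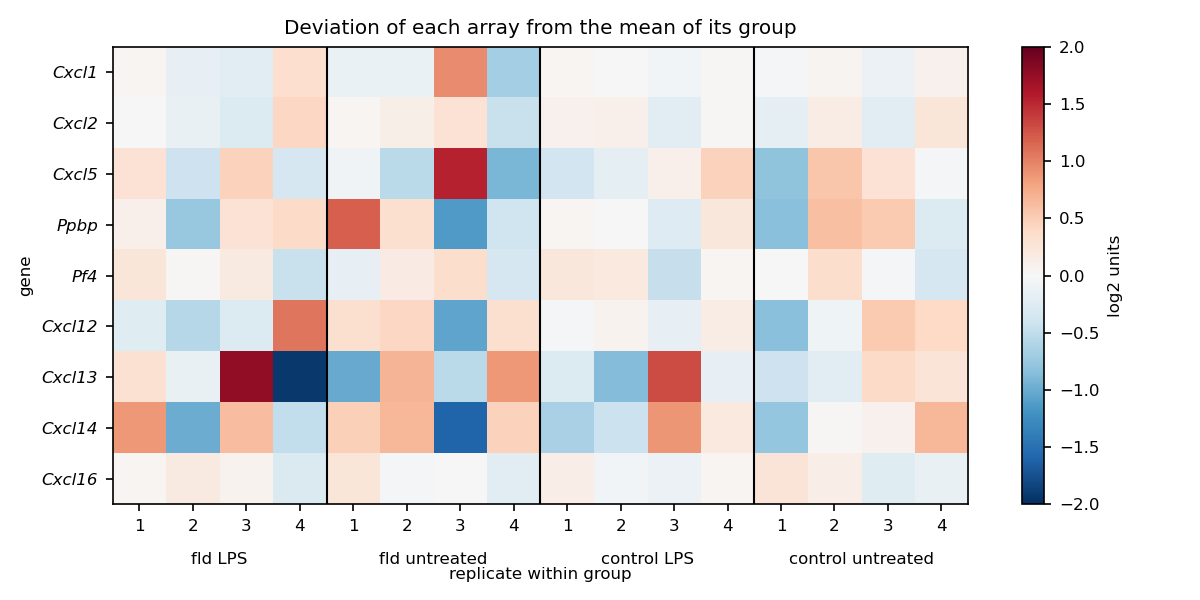
Deviation of each array from the mean of its group (log2 units, colour) for the 9 members in rows and the 16 arrays in columns, grouped as fld LPS, fld untreated, control LPS and control untreated. Untreated fld replicate 3 is above its group in Cxcl1, Cxcl2, Cxcl5 and Pf4 and below it in Ppbp, Cxcl12 and Cxcl14.

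The remaining CXC ligands were read beside the members. Cxcl3, the close relative of Cxcl1 and Cxcl2, rose with LPS by 2.47 (adjusted p = 4.8e-05) in arrays labelled fld and by 3.01 (adjusted p = 9.1e-06) in control arrays. Cxcl15 and Cxcl17 were never well above background. Of the interferon-induced ligands, none rose with LPS: Cxcl10 differed by -3.41 in arrays labelled fld, a fall by the test, and by -2.19 in control arrays, which did not pass (adjusted p = 0.073). Cxcl9 fell by 1.70 in arrays labelled fld, where 1 of 4 LPS-treated arrays was well above background. Cxcl11 differed by -0.82 in arrays labelled fld and 0.36 in control arrays, neither called. Cxcl9 was 1.76 higher in untreated arrays labelled fld than in untreated control arrays (adjusted p = 0.025), of which 2 of 4 were well above background.

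Among the 8 receptors on the list, Cxcr1 and Cxcr2, through which the ELR-bearing members act on neutrophils, were never well above background. Of the 6 tested, 3 rose and 1 fell with LPS in arrays labelled fld, beside 21.9% of all features higher and 18.2% lower. In control arrays 1 rose and 1 fell, beside 14.8% higher and 15.2% lower. Cxcr4, the Cxcl12 receptor, fell in both: its level was 0.55 ± 0.13 with LPS and 2.21 ± 0.31 without it on arrays labelled fld, and 0.80 ± 0.12 with LPS and 2.10 ± 0.28 without it on control arrays (SD, n = 4 each). The differences were -1.66 and -1.30 (adjusted p = 2.9e-06 and 2.6e-05). Cxcr5, the Cxcl13 receptor on B cells, rose by 0.68 in each genotype, and Cxcr3 rose by 0.70 in arrays labelled fld. Cxcr6, the Cxcl16 receptor, differed by 0.50 in arrays labelled fld and -0.16 in control arrays, neither called (named after its values were seen). Ackr1, an atypical receptor that binds inflammatory chemokines without G protein signalling, also rose in arrays labelled fld (0.66). It was higher in them than in control arrays with LPS (1.39, adjusted p = 0.00086) and untreated (0.92, adjusted p = 0.032), and was named after its values were seen.

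Of 16 genes for proteases and proteoglycans that process or hold CXC ligands, 14 were tested. In arrays labelled fld 4 rose and 4 fell with LPS, beside 21.9% of all features higher and 18.2% lower. In control arrays 5 rose and 3 fell, beside 14.8% higher and 15.2% lower. Sdc4, a heparan sulfate proteoglycan, rose by 2.23 in arrays labelled fld and by 2.60 in control arrays. Tnfaip6, which encodes the chemokine-binding protein TSG-6, rose by 2.04 in arrays labelled fld. In control arrays it was at least 4.06-fold higher with LPS, since none of the 4 untreated control arrays was well above background (means -3.19 and -6.21, adjusted p = 9.7e-06). Mmp8, a collagenase that cleaves Cxcl5, fell by 1.65 in arrays labelled fld and by 2.88 in control arrays. Adam17 fell by 0.91 and 0.80. Adam10, the Cxcl16 sheddase, differed by -0.24 in arrays labelled fld and -0.35 in control arrays, neither called (named after its values were seen).

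Genes that act upstream of the ligands mostly rose with LPS. Of 15 transcription factors that act on CXC genes, 11 rose and 1 fell with LPS in arrays labelled fld, and 12 rose and none fell in control arrays. Nfkbiz, a nuclear partner of NF-kB needed for a subset of its secondary targets, rose by 1.86 and 2.27, and Fosl1, an AP-1 subunit, by 1.91 and 1.87. Jun decreased by 0.48 in arrays labelled fld. Of 10 genes for factors that set the decay of CXC transcripts, 8 rose in arrays labelled fld, and 7 rose and 1 fell in control arrays. Zc3h12a, the endonuclease Regnase-1 that degrades inflammatory transcripts, rose by 2.84 and 3.02, and Traf3ip2, the Act1 adaptor that stabilises Cxcl1 transcripts downstream of Il17, by 1.14 and 1.16. The gene that fell in control arrays was Zfp36l2, by 0.64. All 7 tested signals that induce CXC ligands rose in both genotypes. Csf2 rose by 8.13 in arrays labelled fld and by 9.60 in control arrays, where 3 of 4 untreated arrays were well above background, and Csf3 by 8.03 and 7.93. Il17a was never well above background. Median differences of these 3 lists were 0.76, 0.74 and 3.26 in arrays labelled fld and 0.87, 0.52 and 4.80 in control arrays, against 0.065 and 0.034 over all features.

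For each member the 3 named features with the nearest profile were sought, by the root mean square difference over the 16 arrays after each feature's own mean was removed. For Cxcl1 they were Zc3h12a, Errfi1 and Slc39a14, at 0.22, 0.28 and 0.30 log2 units, against a standard deviation of 1.58 for Cxcl1 itself. For Cxcl2 they were Dusp16, Il1b and Nfkbiz, at 0.21, 0.22 and 0.23 against 1.16. Cxcl5 lay nearest to Ppp1r3g, S100a8 and Tmtc2, at 0.43 to 0.54 against 2.38. The neighbours of Pf4 were Litaf, Sptlc2 and C9orf72 (0.12 to 0.15 against 0.34) and those of Cxcl16 were Vps54, Cpne3 and Sppl2a (0.083 to 0.11 against 0.23). Ppbp had Slc22a23, Gstm3 and Kank3 (0.48 to 0.50 against 1.20), and Cxcl12 had Fut7, Sardh and Ldhb (0.43 to 0.45 against 1.04). Cxcl13 had Snx24 and the macrophage genes Mertk and C1qa (0.69 to 0.71 against 1.44), and Cxcl14 had Fut4, Fgr and Itgax (0.42 to 0.43 against 0.87). The arrays share group, slide and scaling, so these distances describe profiles only.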

How the data were processed

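RNA from 16 macrophage cultures was measured on Agilent arrays of design 014868. Per the file headers, Agilent Feature Extraction 9.5.1.1 wrote each array's background-subtracted intensity, with flags for spots above background, saturated or outlying; the Agilent tool is also named in the submitters' processing notes. The authors' deposited value table holds the same intensity divided by each array's median (ratio 0.99999 to 1.00001). No source used here names the genome build of the probes.

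Control spots were left out, 43379 of 45018 spots remained, 0.208% of values with a feature outlier flag were set missing (none of a member), spots of 1 probe were averaged, and log2 intensity minus the array's 75th percentile was taken. Of 41174 probes, 25535 were kept and gave 17466 features. Names came from the RefSeq gene table through the accession (22951 probes), the symbol (6659) or a synonym (3109), and otherwise from the file (8455). A Zmynd15 probe that the table lists under a Cxcl16 synonym was left out. A difference was called at an adjusted p under 0.05 from limma 3.58.1 (R 4.3.3; lmFit and eBayes on all 16 arrays, 1 mean per group, two-sided, Benjamini-Hochberg over all features of a comparison). The fit was tested on simulated data. Replicates correlated at 0.961 or more. With 4 arrays a group the precision rests on their number.

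Where no array of a group was well above background, its levels were raised to the dimmest probe still called above background on each array, and a fold was computed from that. The fold is a lower limit only where all arrays of the other group were well above background. Where some arrays of a group were well above background, the plain fitted difference is given. The members and lists were chosen with earlier results of these data known. Other genes were named as the 2 largest called differences per list, direction and genotype, lists of 3 or fewer genes in full, and the 3 nearest profiles per member. Alternatives covered the background correction, normalization, filter, features, outlying spots, blocks, samples and each array left out. Spots with a background outlier flag left out, and LPS-treated fld replicates 2 and 4 left out, were chosen after seeing the data.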

Additional observations from a re-analysis of the deposited data

Results flagged for a closer look

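In 3 of the 44 sets of 4 arrays examined (11 probes in 4 groups), 1 array lay further from the other 3 than Dixon's critical value at 95% allows; chance alone gives about 1 in 20. The sets are not independent, as they share arrays and, for the probes of Cxcl12 and of Cxcl16, a gene. All 3 flagged sets had the distant array at untreated fld replicate 3. The tested Cxcl12 probe stood at -4.76 there, against -3.39 to -3.28 on the other 3 untreated arrays labelled fld. The second Cxcl12 probe stood at -7.24, against -5.56 to -5.28, and was well above background on 0 of these 4 arrays. Cxcl14 stood at -1.68, against 0.38 to 0.59.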

How the results depend on the processing

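The LPS rises of Cxcl1, Cxcl2 and Cxcl5 kept their direction and their call in both genotypes under every alternative run, with differences of 2.45 to 3.20, 1.73 to 2.33 and 3.07 to 5.52, and Ppbp lost its 2 calls only under the normexp correction (-0.46 and -0.83). With each array left out in turn, 4 to 7 members were called for LPS in arrays labelled fld and 5 to 6 in control arrays, 0 to 1 for genotype with LPS, and 0 untreated or for the difference of responses. Calls over all features then ran from 5390 to 7349, 4225 to 5960, 2150 to 3280, 351 to 1652 and 0 to 1 in the same order. Fits with a replicate block changed no member's call. Same-numbered arrays correlated between -0.10 and 0.20 in fld and between 0.08 and 0.26 in control. Arrays of different number correlated between -0.42 and 0.38 in fld and between -0.25 and 0.21 in control. The numbers were not taken as pairs in the main fit. Both fld arrays of replicate 4 went against their label on Lpin1, and whether they came from 1 mouse is not known. The random block (correlation 0.115) called 2 features and the fixed block 1 for the difference of responses, against 0 without a block.

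The normexp correction (offset 50) called 1389 and 1124 features for LPS, against 7011 and 5231, and 0 for each genotype comparison; 3 members were called in each genotype. With extreme local backgrounds reset, 37 features were called for untreated genotype, against 918. Quantile normalization gave 526 there and 14 for the difference of responses. The value table called 8641 features for genotype with LPS, against 2982, with 2 members (Cxcl13 at -2.14 and Cxcl16 at -0.50), and 7 for the difference of responses; its scaling moved the median of all features by -0.40 for genotype with LPS, -0.24 for LPS in fld, -0.18 for untreated genotype and -0.22 for the difference, and normexp moved it by 0.13 and 0.12 for LPS in fld and control. Fits on the 2 groups compared called 1704 features for untreated genotype. Array quality weights called 2233 there, with 1 member (Cxcl16 at 0.39), and 10 for the difference. Without LPS-treated fld replicates 2 and 4, 1690 features were called for genotype with LPS and 1685 untreated. The causes were not tested.

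Differences that changed sign had not been called with all arrays and the usual settings, except those of Cxcl12 and Cxcl16 in control arrays. For LPS, normexp gave Pf4 -0.071 in fld and -0.11 in control, Cxcl12 0.69 in fld and 0.22 in control, and Cxcl16 -0.096 in control; with backgrounds reset Cxcl12 was 0.16 in fld. For genotype with LPS, Cxcl1 gave -0.047 (reset), -0.033 (quantile), -0.33 (value table), -0.039 (without both fld replicate 4 arrays), -0.017 (weights), -0.031 (background flags) and -0.015 (without fld 2 and 4). Cxcl2 gave -0.27 (value table), -0.011 (without both fld replicate 4 arrays), -0.017 (weights) and -0.0043 (without fld 2 and 4). Pf4 gave -0.090 (reset), -0.051 (quantile) and -0.33 (value table), and Cxcl14 0.025 (reset), 0.12 (without both fld replicate 4 arrays), 0.33 (weights) and 0.69 (without fld 2 and 4). Untreated, Pf4 gave -0.0088 (quantile), -0.13 (value table) and -0.040 (weights). For the difference of responses, Pf4 gave -0.12 (reset), -0.042 (quantile), -0.21 (value table) and -0.0996 (background flags), Cxcl13 0.031 (without both fld replicate 4 arrays), 0.035 (weights) and 0.14 (without fld 2 and 4), and Cxcl14 0.22 (without fld 2 and 4).

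With 1 array left out, signs also turned within these ranges. With LPS the genotype difference ran from -0.039 to 0.14 for Cxcl1, -0.011 to 0.22 for Cxcl2, -0.085 to 0.21 for Pf4 and -0.33 to 0.28 for Cxcl14. Untreated it ran from -0.020 to 0.52 for Cxcl1, -0.57 to 0.21 for Ppbp and -0.068 to 0.17 for Pf4. The difference of responses ran from -0.44 to 0.094 for Cxcl1 and -0.14 to 0.16 for Pf4. Signal over background limits Cxcl12. With 1 array left out, the LPS call of Cxcl13 in arrays labelled fld held in 13 of 16 fits. In the same arrays Cxcl12 and Cxcl14, not called with all arrays, were called in 2 and in 1 of these fits. The control call of Cxcl16 held in 5 of 16.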
